A study of Mus musculus with 4 samples.

Results

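Bone morphogenetic protein (Bmp) signalling was examined through 9 genes chosen by symbol: the ligand Bmp4, the receptors Bmpr1a and Bmpr2, the signal-transducing Smad1 and Smad5, the inhibitory Smad6, and the target genes Id1, Id2 and Id3. All 9 were found among the 23259 genes that the 4 deposited tables shared, and all 9 passed the filter on low values (1 FPKM or more on average), which left 11932 genes for testing. Each table held the RNA of 1 clone of male mouse embryonic stem cells. The WT clones came from Gcn5 flox/flox founder lines 4 and 6, from cells that stayed GFP-negative after transient transfection with a GFP-Cre fusion under the EF1α promoter. The KO clones came from the GFP-positive cells of the same founder lines, sorted at 72 hours, and lack exons 3 to 18 of Gcn5 (Kat2a), a histone acetyltransferase. All 4 clones therefore derive from floxed cells and passed through the same transfection and sort, and each genotype and line is represented by 1 picked clone. The floxed lines were kept with 15% serum, 1000 U/mL of LIF and mitotically inactivated fibroblast feeders. Serum is itself a source of Bmp activity, and no Bmp ligand or inhibitor is named in the culture.

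A Bmp ligand brings together type I receptors such as Bmpr1a and type II receptors such as Bmpr2, and the type I kinase phosphorylates Smad1 and Smad5, which enter the nucleus with Smad4. Smad6 and Smad7 are induced by the pathway and damp it. In embryonic stem cells the best known targets are the Id genes, whose products lack a DNA-binding region and hold E proteins away from DNA, and serum or Bmp4 acts with LIF through them to keep the cells from differentiating.

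The sequence just upstream of Bmp4, Smad6, Id2 and Id3 is shown because these members stood apart between the founder lines in both genotypes, as described further on, and because Smads bind short DNA elements. The sequences are from RefSeq on build GRCm38.p6, whereas the expression values were made on mm9. Capitals mark GGCGCC, the GC-rich element bound by Smad1 and Smad5, and GTCT or its complement AGAC, the Smad box. Both strands were searched over the 250 bases before the start, and these motifs cannot overlap. Bases of Id2 and Id3 that GENCODE M21 places in an exon were left out or cut to 30 bases around a match.
Bmp4, chr14:46390670-46390919, minus strand: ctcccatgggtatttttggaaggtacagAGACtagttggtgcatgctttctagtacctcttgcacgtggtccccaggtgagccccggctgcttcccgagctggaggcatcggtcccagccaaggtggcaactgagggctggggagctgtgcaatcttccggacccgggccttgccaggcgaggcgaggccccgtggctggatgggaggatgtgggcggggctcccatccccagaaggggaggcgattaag
Smad6, chr9:64022060-64022309, minus strand: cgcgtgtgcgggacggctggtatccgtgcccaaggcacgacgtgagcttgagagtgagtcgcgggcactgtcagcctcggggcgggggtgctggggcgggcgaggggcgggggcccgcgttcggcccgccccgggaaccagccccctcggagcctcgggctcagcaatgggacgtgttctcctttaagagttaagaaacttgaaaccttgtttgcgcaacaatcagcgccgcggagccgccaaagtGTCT
Id2, chr12:25096254-25096342, minus strand: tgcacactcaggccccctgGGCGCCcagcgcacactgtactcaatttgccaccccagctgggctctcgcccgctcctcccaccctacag
Id3, chr4:136143643-136143672, plus strand: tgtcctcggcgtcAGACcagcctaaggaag
Id3, chr4:136143741-136143770, plus strand: tggacccttggcgGTCTgttttgaataagg

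Of the 9 members, 8 had an entry in the promoter table. Id1, which also stood apart between the lines in both genotypes, was the one without. GGCGCC occurred once in the window of Id2, at position -231 from the start, and not in those of Bmp4, Smad6 or Id3. It also occurred once each for Bmpr1a (position -198) and Bmpr2 (-105) and before 1 of the Smad5 starts (-19), members for which no line difference was detected. The element was found in 9.59% of the 32851 promoter windows of the table. The Smad box occurred once in the windows of Bmp4, Smad6 and Id2 and at 2 places in that of Id3, and it was found in 82.9% of all windows, so most promoters share it. Such matches are letters only. On the same build, Bmp4 overlaps the noncoding genes Gm15217 and Gm15222, and whether the counting used strand is not known here, so a share of its value could belong to them.

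The libraries carried the transcripts of stem cells. The 8 stem cell markers (among them Pou5f1, Nanog and Dppa5a) summed to between 3280 and 5180 FPKM, whereas the 6 markers of primitive streak and mesoderm summed to between 1.54 and 2.04 FPKM. The 14 fibroblast markers, which feeder cells express, summed to between 87.0 and 166 FPKM, and the 6 trophectoderm markers to between 16.7 and 27.0 FPKM. Kat2a, the deleted gene, stood at 38.7 and 34.4 FPKM in the WT clones of lines 4 and 6 and at 11.5 FPKM in both KO clones (log2 fold change -1.58, limma adjusted p = 0.0112). Values are FPKM that the authors scaled to spike-ins, and on this scale most genes were lower in KO: the median difference between KO and WT was -0.44 on the log2(FPKM + 1) scale in line 4 and -0.19 in line 6. The spike-ins were added to 1 µg of RNA, so this shift is per amount of RNA and cannot be read as RNA per cell. For a single gene in RNA from many cells, fewer cells of a type and less of its RNA in each cannot be told apart. Differences are therefore given both as deposited and relative to this median gene.

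The members were expressed at low to middling levels, with a receptor and an Id gene at the top. Ordered by mean FPKM over the 4 libraries, Bmpr1a stood at 17.2, Id3 at 15.0, Id2 at 11.7, Id1 at 5.60, Smad1 at 4.71, Bmp4 at 4.45, Smad5 at 3.59, Bmpr2 at 3.14 and Smad6 at 2.82 FPKM. The median tested gene stood at 9.68 FPKM, so 3 of the 9 members lay above it. Bmpr1a, Id3 and Id2 were the 3 highest in every library, with Bmpr1a first in 3 of them and Id3 first in KO of line 6. The lower 6 changed places from library to library. Neighbours in this order, other than Id2 and Id1, differed by less than the larger of their SDs over the libraries (0.629 FPKM for Smad1 to 3.83 FPKM for Id2, n = 4).

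**Figure D1:**
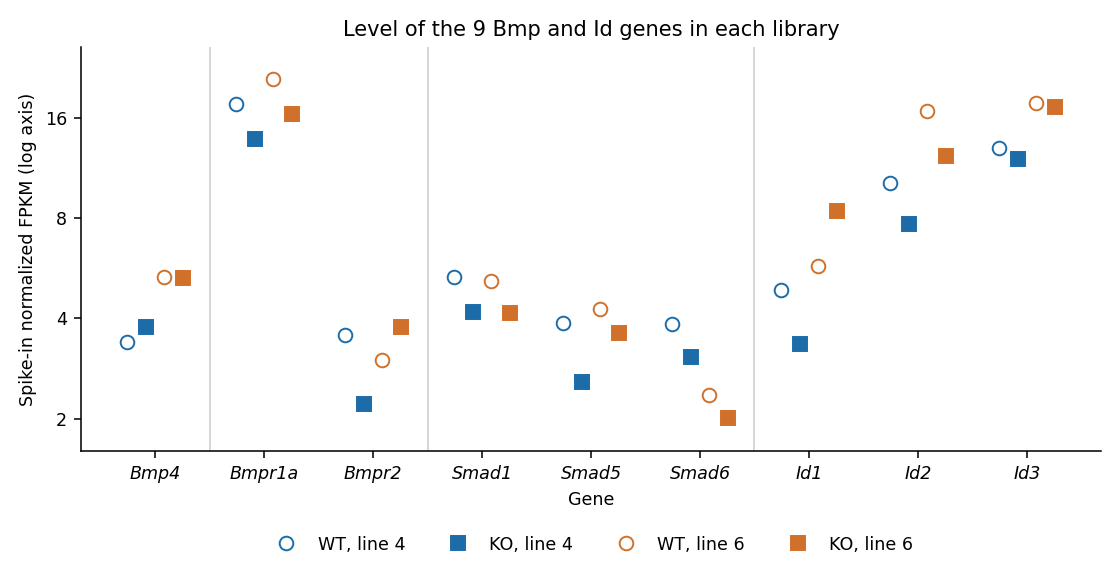
Spike-in normalized FPKM (log axis) of the ligand, receptors, Smads and Id genes in each of the 4 libraries, 1 point per library, with open circles for WT and squares for KO. Bmp4, Id1, Id2 and Id3 lie higher in both line 6 clones than in both line 4 clones, and Smad6 lies lower.

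None of the 9 members passed the test between KO and WT (limma, Benjamini-Hochberg adjusted over all 11932 tested genes), at adjusted p from 0.445 to 0.952. Bmpr1a, Smad1 and Smad5 were lower in both KO clones than in both WT clones, Id1 and Bmpr2 went in opposite directions in the lines, and Bmp4 and Id3 lay near equal levels in KO and WT. The test called 0.0168% of all genes, and 0.796% with the founder line as a block, where again 0 members passed. At an unadjusted p under 0.05 the fit held 661 genes, and 0 of them were members. In the lines, 8 members were lower in KO in line 4 and 7 in line 6, against 97.6% and 87.7% of all tested genes. The members' median log2 fold change was -0.20, against -0.32 for all tested genes. With every library centred on its median, the log2 fold changes of Bmpr2, Smad1, Smad6 and Id3 turned positive, at 0.18, 0.031, 0.10 and 0.23, and did not pass.

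Bmp4, the ligand that sustains self-renewal together with LIF, had 3.41 FPKM in the WT clone and 3.78 in the KO clone of line 4, and 5.31 and 5.29 in line 6. The KO and WT values of each line were close to each other, and the line 6 clones were the higher pair. Its log2 fold change was 0.055 (95% interval -0.53 to 0.64, limma adjusted p = 0.873). In line 4, where nearly all genes were lower in KO, 98.8% of tested genes had a more negative difference than Bmp4, and in line 6 87.1% had. With every library centred on its own median the fold change was 0.36, and this did not pass either (adjusted p = 1.00, and 0.832 with the founder line as a block).

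Bmpr1a, the type I receptor, had 17.6 FPKM in the WT clone and 13.9 in the KO clone of line 4, and 21.0 and 16.4 in line 6. Both KO clones lay below both WT clones, at a KO/WT ratio of 0.785 in each line. The log2 fold change was -0.33 (SE 0.24, 95% interval -0.83 to 0.17, limma adjusted p = 0.445), and relative to the median gene it was -0.013. Without single libraries it ran from -0.45 to -0.21. Bmpr2, the type II receptor, had 3.57 FPKM in the WT clone and 2.22 in the KO clone of line 4, and 3.01 and 3.78 in line 6. It was thus lowest in KO of line 4 and highest in KO of line 6, at KO/WT ratios of 0.621 and 1.26. Over the 4 libraries its log2 fold change was -0.13 (95% interval -0.70 to 0.45, limma adjusted p = 0.705).

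Smad1 and Smad5 carry the signal to the nucleus. Smad1 had 5.32 FPKM in the WT clone and 4.18 in the KO clone of line 4, and 5.18 and 4.15 in line 6. Its WT clones differed by less from each other (5.25 ± 0.102 FPKM, SD, n = 2) than either did from the KO clones (4.16 ± 0.0275 FPKM, SD, n = 2). The log2 fold change of -0.27 did not pass (SE 0.26, 95% interval -0.81 to 0.26, limma adjusted p = 0.458). That SE came mostly from the spread pooled over genes of like level, not from Smad1 itself. Smad5 had 3.89 FPKM in the WT clone and 2.58 in the KO clone of line 4, and 4.27 and 3.63 in line 6, again without overlap of the genotypes (log2 fold change -0.32, 95% interval -0.87 to 0.24, limma adjusted p = 0.446). Without single libraries the fold change of Smad5 ran from -0.50 to -0.13. Separation of this kind was common: 59.8% of all tested genes had both KO clones below both WT clones, as did 3 of the 9 members. Relative to the median gene Smad1 lay at 0.042 and Smad5 at -0.0020.

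Smad6, the inhibitory Smad, had 3.84 FPKM in the WT clone and 3.07 in the KO clone of line 4, and 2.36 and 2.02 in line 6. The KO value was the lower of the pair in both lines, but the KO clone of line 4 was above the WT clone of line 6. The log2 fold change was -0.20 (95% interval -0.79 to 0.38, limma adjusted p = 0.566), and 0.10 on centred values, so its sign rests on the scale.

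The Id genes did not move together between KO and WT. Id1 had 4.87 FPKM in the WT clone and 3.35 in the KO clone of line 4, and 5.76 and 8.41 in line 6. The KO clones were therefore both the lowest and the highest library for this gene, with KO/WT ratios of 0.689 and 1.46, and the log2 fold change of 0.023 had a wide interval (95% interval -0.64 to 0.69, limma adjusted p = 0.952). It ran from -0.53 to 0.58 when single libraries were left out. Id2 had 10.2 FPKM in the WT clone and 7.68 in the KO clone of line 4, and 16.7 and 12.2 in line 6. Its KO value was lower by like amounts in the lines, at ratios of 0.752 and 0.732, with a log2 fold change of -0.39 (95% interval -0.99 to 0.20, limma adjusted p = 0.445). Without WT of line 4 and without KO of line 6 this fold change was -0.73 and -0.70, and without the other libraries -0.064 and -0.090, with adjusted p of 0.472 to 0.925.

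Id3, the most abundant Id transcript, had 13.0 FPKM in the WT clone and 12.0 in the KO clone of line 4, and 17.7 and 17.2 in line 6. Its KO and WT clones were nearly level in each line (log2 fold change -0.072, 95% interval -0.62 to 0.47, limma adjusted p = 0.819). Summed over Id1, Id2 and Id3, the level was 28.0 FPKM in WT and 23.1 in KO of line 4, and 40.2 and 37.8 in line 6. Id1 made up 14.3% of this sum in WT of line 6 and 22.2% in KO of line 6, and 17.4% and 14.5% in WT and KO of line 4.

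**Figure D2:**
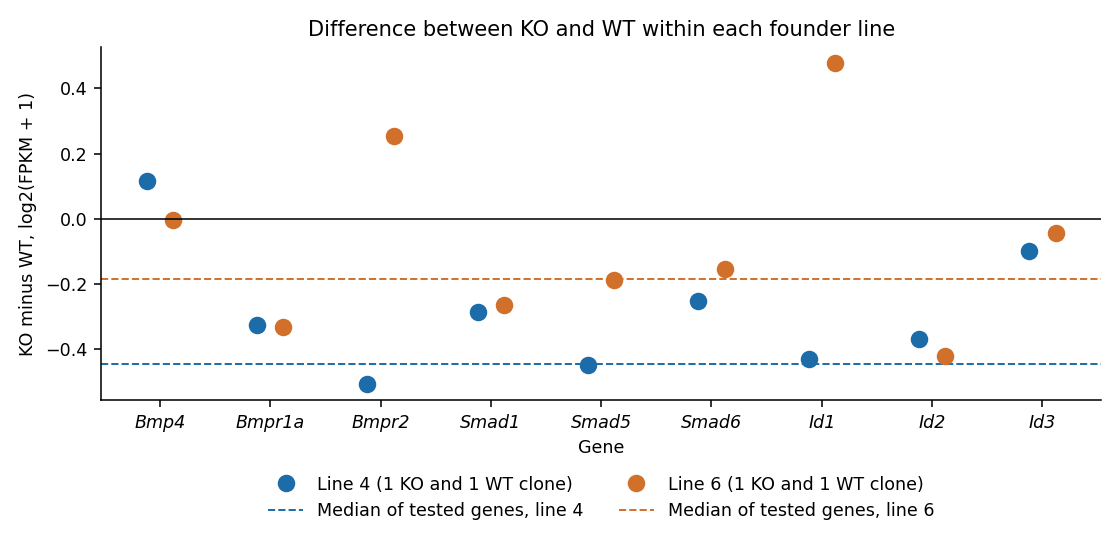
Difference between the KO and the WT clone of each founder line for the 9 members, on the log2(FPKM + 1) scale, 1 point per line; dashed lines mark the median of all tested genes in that line. Bmpr2 and Id1 lie below 0 in line 4 and above 0 in line 6, while Bmpr1a and Id2 lie at nearly the same depth in both lines.

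Id1 and Bmpr2 had the members' widest gaps between the lines in the KO to WT difference. Id1 lay at -0.43 in line 4 and 0.48 in line 6 on the log2(FPKM + 1) scale, a gap of 0.91, and 99.0% of tested genes had a smaller or more negative gap. Bmpr2 lay at -0.51 and 0.25, a gap of 0.76, above 97.2% of tested genes. With 1 pair of clones per line this gap has no test. Being lower in KO in line 4 and higher in line 6 held for 2 of the 9 members and for 11.3% of all tested genes. The fibroblast markers showed the same signs: 13 of 14 were lower in KO in line 4 and higher in line 6, all but Lum, and their sum was 166 FPKM in WT and 125 in KO of line 4, and 87.0 and 117 in line 6. Their single values ran from 0.339 to 53.5 FPKM, where the lowest value that any gene has in a library is 0.0088 to 0.0107 FPKM, and their part in the Id1 and Bmpr2 values was not tested. No member was 1.5-fold or more apart between KO and WT on the log2(FPKM + 1) scale in either line. Of all tested genes, 16.3% were in line 4 and 2.01% in line 6. The added 1 FPKM shrinks changes of low genes most. Without it, Bmpr2 (KO/WT ratio 0.621) and Smad5 (0.664) were past 1.5-fold in line 4. The share of all genes was not counted without it.

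**Figure D3:**
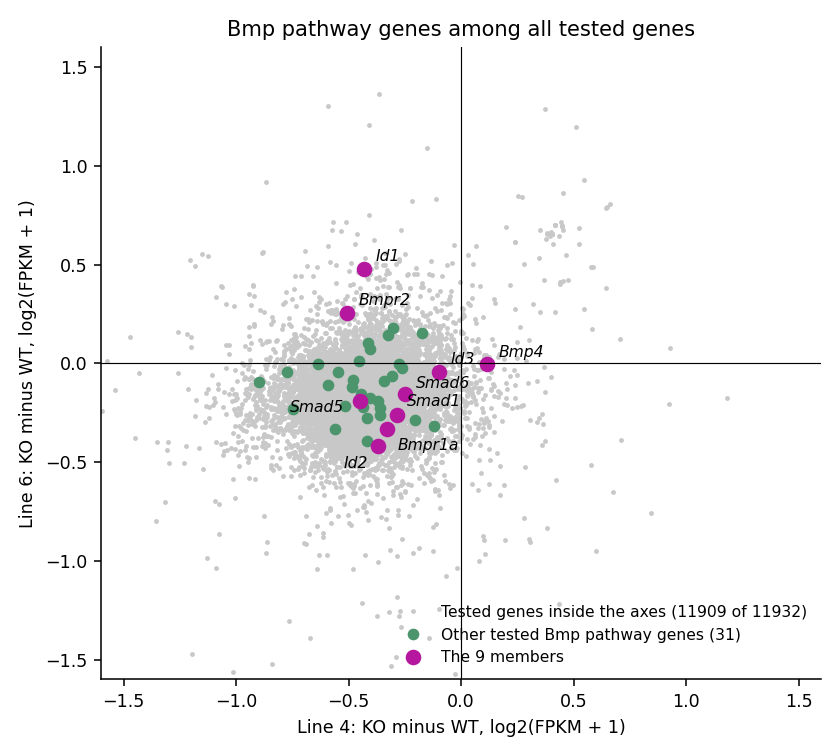
KO minus WT on the log2(FPKM + 1) scale in line 4 (horizontal) against line 6 (vertical), with 1 point per tested gene; 11909 of the 11932 genes fall inside the axes. The members (large points) and the 31 other tested Bmp pathway genes lie within the cloud of all genes, with Id1 and Bmpr2 at its upper edge and Bmp4 to its right.

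Between the founder lines, the ligand and all 3 Id genes had higher values in line 6 and Smad6 had lower ones, in both WT and KO. None of these differences passed the test on the deposited scale. Both line 6 clones lay above both line 4 clones for Bmp4, Id1, Id2 and Id3, which is 4 of the 9 members against 16.3% of all tested genes. Both lay below for Smad6, 1 of 9 against 17.4%. The members were chosen with earlier results of these data known, so such shares are no test of the pathway. The 2 clones of a line share their founder, so they are replicates of that founder line only. The line and the genotype are balanced, and the median gene differed by -0.14 on the log2 scale between the WT clones of lines 6 and 4, by 0.12 between the KO clones and by -0.013 over all 4.

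Id2 was 1.62-fold higher in line 6, with 8.94 ± 1.79 FPKM in line 4 and 14.5 ± 3.17 FPKM in line 6 (SD, n = 2), at ratios of 1.64 in WT and 1.59 in KO. Id3 stood at 12.5 ± 0.658 FPKM in line 4 and 17.5 ± 0.399 FPKM in line 6 (SD, n = 2), at ratios of 1.37 in WT and 1.43 in KO. These 2 genes thus differed between the lines by nearly the same ratio with and without Gcn5. Id1 stood at 4.11 ± 1.07 FPKM in line 4 and 7.08 ± 1.87 FPKM in line 6 (SD, n = 2), but the ratio was 1.18 in WT and 2.51 in KO, so most of its difference lay in the KO clones. Bmp4 stood at 3.59 ± 0.259 FPKM in line 4 and 5.30 ± 0.0164 FPKM in line 6 (SD, n = 2), at ratios of 1.56 and 1.40. Smad6 went the other way, with 3.45 ± 0.547 FPKM in line 4 and 2.19 ± 0.240 FPKM in line 6 (SD, n = 2), at ratios of 0.614 in WT and 0.658 in KO.

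No member passed the test between the lines on the deposited scale, where 1.98% of all tested genes did (113 higher and 123 lower in line 6). The log2 difference was 0.66 for Id1 (95% interval 0.032 to 1.28, limma adjusted p = 0.516), 0.64 for Id2 (-0.029 to 1.30, adjusted p = 0.625), 0.45 for Id3 (-0.22 to 1.12, adjusted p = 0.884), 0.46 for Bmp4 (-0.15 to 1.06, adjusted p = 0.806) and -0.48 for Smad6 (-1.03 to 0.072, adjusted p = 0.689). That fit counts the shift between KO and WT as spread. With genotype as a term, Id1 and Id2 passed (limma adjusted p = 0.0386 and 0.0457), when 9.13% of all genes did. In this second fit the SE of Id1 (0.223) was near that of Smad1 (0.221). Yet the KO to WT difference changed between the lines by 0.91 for Id1 and by 0.023 for Smad1. The SE behind the Id1 call thus hardly reflected the spread of Id1 itself. With every library centred on its own median, Id1, Id2, Id3 and Smad6 passed (limma adjusted p = 0.0376, 0.00799, 0.0313 and 0.0350), when 30.2% of all genes did. With both changes Bmp4 passed as well (limma adjusted p = 0.0415), so that 5 of the 9 members passed where 29.6% of all genes did. The sign of these 5 differences was the same in every alternative run. Only centring or quantile normalization could have turned it, because both line 6 clones lay on one side of both line 4 clones. Without single libraries, on the deposited scale, Id1 ran from 0.42 to 0.90, Id2 from 0.43 to 0.85 and Smad6 from -0.60 to -0.35. Which members passed changed with the library left out, as did the number of all genes that passed. Such fits leave 1 clone in a line, so their calls are not given.

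No difference between the lines was detected for the receptors and the signal-transducing Smads. Bmpr1a had a log2 difference of 0.23 (95% interval -0.44 to 0.90), Smad5 one of 0.24 (-0.34 to 0.82), Bmpr2 one of 0.19 (-0.38 to 0.76) and Smad1 one of -0.022 (-0.64 to 0.59), each with a limma adjusted p of 0.999. Without single libraries Bmpr1a ran from 0.068 to 0.40 and Smad5 from 0.014 to 0.46. In KO alone Smad5 was 1.40 times as high in line 6 as in line 4, a ratio like those of Bmp4 and Id3, and in WT 1.10 times. None of these 4 passed with genotype as a term or on centred values. On centred values the limma adjusted p was 0.0703 for Bmpr1a and 0.0668 for Smad5, below the 0.0912 of Bmp4. It was 0.273 for Bmpr2 and 0.904 for Smad1. The ratio of Smad6 to the sum of Smad1 and Smad5 was 0.417 in WT and 0.453 in KO of line 4, and 0.249 and 0.260 in line 6, so inhibitor and transducers stood in different proportion in the lines and in nearly the same one in KO and WT. Markers of other states also differed between the lines. The 7 markers of extraembryonic endoderm summed to 4.01 and 1.75 FPKM in WT and KO of line 4 and to 8.42 and 6.12 FPKM in line 6. All 7 were higher in both line 6 clones than in both line 4 clones, as were 16.3% of all tested genes. However, 5 of the 7 fell under the filter, so that share does not cover genes of their level. Afp was near the lowest value of the library in 3 of the 4. The 5 markers of formative and primed epiblast summed to 98.6 and 99.4 FPKM in WT and KO of line 4. In line 6 they summed to 232 and 179 FPKM. Most of this sum was Dnmt3b, at 84.3 and 86.8 FPKM in WT and KO of line 4 and 204 and 154 FPKM in line 6. Of the 5 markers, 4 were higher in both line 6 clones. The exception, Otx2, had 5.89 FPKM in KO of line 4 and 5.83 FPKM in KO of line 6. The fibroblast sum was lower in WT of line 6 (87.0 against 166 FPKM) and nearly level in KO (117 against 125 FPKM), with 7 of the 14 markers lower in both line 6 clones and 2, Cdh11 and Twist1, higher in both. Their part in the Id and Bmp4 differences was not tested.

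**Figure D4:**
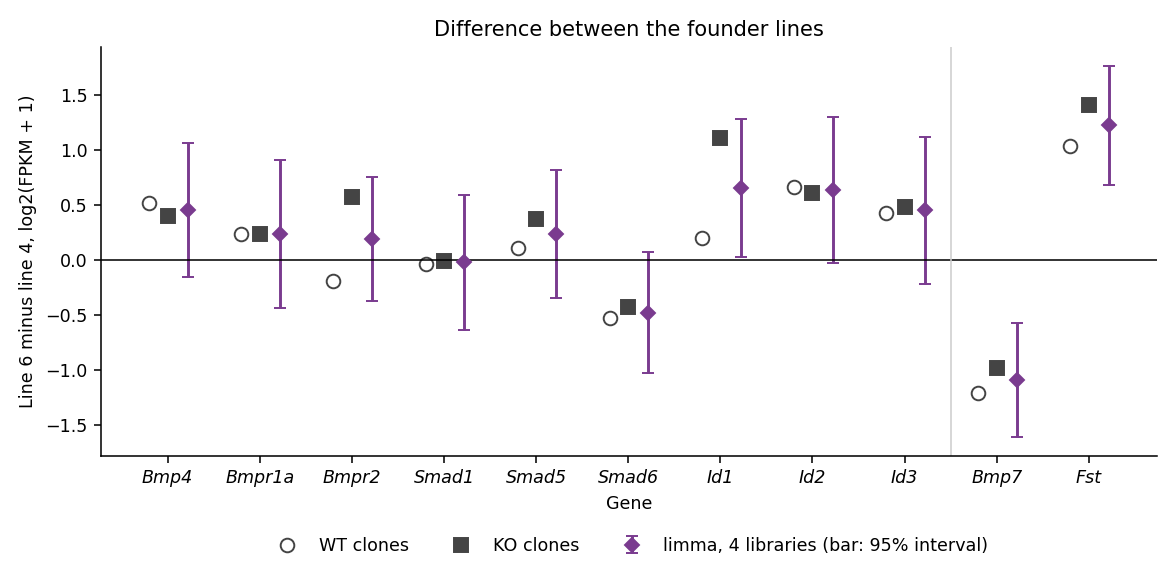
Line 6 minus line 4 on the log2(FPKM + 1) scale for the members and for Bmp7 and Fst, with the WT pair (circles), the KO pair (squares) and the limma estimate over the 4 libraries (diamonds, with its 95% interval). Bmp4, Id2, Id3 and Smad6 differ alike in WT and KO, Id1 differs mostly in KO, and the intervals of Bmp7 and Fst lie clear of 0.

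The wider pathway, 73 genes in 7 lists by role that include the members, had 40 tested genes, and 0 of them passed between KO and WT. Of these 40, 39 were lower in KO in line 4 and 32 in line 6, against 97.6% and 87.7% of all tested genes. Both held for 31, and the share of all genes lower in both was not counted. The median log2 fold change of the 40 was -0.29, against -0.32 for all tested genes. Of the genes reported here, Bmp7 passed between the lines as lower in line 6 and Fst as higher. Among ligands, 13 of 16 fell under the filter, including Bmp2 (0.0582 to 0.179 FPKM). Bmp7, a second Bmp ligand, had 4.48 FPKM in the WT clone and 2.72 in the KO clone of line 4 and 1.38 and 0.890 in line 6, so both line 6 clones were below both line 4 clones (log2 difference -1.09, SE 0.26, limma adjusted p = 0.00402). Gdf3, a ligand of stem cells that also binds Bmps, was the most abundant, at 76.8 and 56.5 FPKM in WT and KO of line 4 and 97.7 and 83.7 FPKM in line 6. It did not pass (limma adjusted p = 0.445 between KO and WT and 0.904 between lines). On centred values it passed between the lines (limma adjusted p = 0.00665), as did 30.2% of all tested genes.

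Among the extracellular antagonists, Fst was higher in line 6 and did not pass between KO and WT (limma adjusted p = 0.541). Fst, or follistatin, which binds activins and some Bmps, had 1.73 FPKM in the WT clone and 0.945 in the KO clone of line 4 and 4.60 and 4.15 in line 6, so both line 6 clones were well above both line 4 clones (log2 difference 1.22, SE 0.28, limma adjusted p = 0.00136). The calls of Bmp7 and Fst ended without WT or KO of line 6, and without the filter on low values (limma adjusted p = 0.458 and 0.360). Their signs stayed, though only centring or quantile normalization could have turned them. Fstl3, a follistatin relative, had a log2 difference of -0.69 (limma adjusted p = 0.197). With genotype as a term it passed (limma adjusted p = 0.0110), as did 9.13% of all tested genes. Noggin and chordin, the classical Bmp antagonists, fell under the filter, at 0.0993 to 0.142 FPKM for Nog and 0.668 to 0.940 FPKM for Chrd. Between KO and WT the lowest p of this list belonged to Fstl1 (log2 fold change -0.50) and Twsg1 (-0.37), each at a limma adjusted p of 0.445.

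Among the other receptors, Acvr2b, a type II receptor shared with activin, stood at 14.5 and 10.6 FPKM in WT and KO of line 4 and 12.3 and 9.12 FPKM in line 6, above Bmpr2 in every library. Acvr2a stood between 2.50 and 3.90 FPKM and Acvr1, another type I receptor, between 0.963 and 1.96 FPKM, while Bmpr1b did not exceed 0.432 FPKM, so Bmpr1a was the most abundant type I receptor of the Bmp branch here. The co-receptors Eng and Rgmb had log2 fold changes of -0.16 and -0.25 between KO and WT. No receptor passed either test (limma adjusted p = 0.445 to 0.705 between KO and WT). Smad4, the common partner of Smad1 and Smad5, was more abundant than both, with 18.2 ± 1.51 FPKM over the WT clones and 14.6 ± 0.989 over the KO clones (SD, n = 2, log2 fold change -0.30, limma adjusted p = 0.445), and Smad9 did not exceed 0.0774 FPKM.

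The intracellular inhibitors were all tested. All 9 were lower in KO in both lines, where 97.6% of all tested genes were in line 4 and 87.7% in line 6. In 8 of the 9 both KO clones lay below both WT clones, as in 59.8% of all tested genes. None passed, and their median log2 fold change of -0.29 was near that of all genes. Smad7, which inhibits both the Bmp and the activin branch, had 19.5 and 12.2 FPKM in WT and KO of line 4 and 15.5 and 15.5 in line 6, so it was lower in KO in line 4 and nearly level in line 6. The members of this list with the lowest p between KO and WT were Tob1 (log2 fold change -0.49), Ppm1a (-0.31) and Skil (-0.29), each with a limma adjusted p of 0.445, and those between the lines were Smurf2, Smurf1 and Bambi, each at 0.999.

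Of the other targets, Id4 did not follow its paralogs across the lines. Its values were 2.96 and 1.97 FPKM in WT and KO of line 4 and 2.51 and 2.77 in line 6 (log2 difference between the lines 0.084, limma adjusted p = 0.999). Its KO clones were, as for Id1, the lower of the pair in line 4 and the higher in line 6. Klf10, a target of Tgf-β and Bmp signals, had 57.0 and 32.8 FPKM in line 4 and 28.0 and 27.1 in line 6, with both line 6 clones below both line 4 clones. Its log2 difference of -0.63 did not pass (limma adjusted p = 0.641). With genotype as a term it passed (limma adjusted p = 0.0262), as did 9.13% of all tested genes. Dusp9, a MAP kinase phosphatase induced by Bmp4 in stem cells, stood between 46.3 and 57.6 FPKM and Hey1 between 1.87 and 3.04 FPKM, with no call in either comparison. The E proteins that Id proteins bind were led by Tcf3 (31.2 to 42.1 FPKM), above Tcf12 (5.17 to 8.89 FPKM) and Tcf4 (2.76 to 5.32 FPKM). Summed E protein transcripts were 1.95 times the summed Id1, Id2 and Id3 transcripts in WT and 1.70 times in KO of line 4, and 1.37 and 1.24 times in line 6. Tcf4 and Tcf12 were higher in line 6 on centred values (limma adjusted p = 0.0189 and 0.0143), where 30.2% of all tested genes passed. On the deposited scale they did not pass (limma adjusted p = 0.897 and 0.941).

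Only Id1 and Id2 spanned 1 or more on the log2 scale over the 4 libraries, and their nearest genes by pattern were not members. By Euclidean distance between log2 profiles centred per gene, over 4 libraries and 11931 other genes, the genes most like Id1 were D17Ertd648e, Tnc and the entry Mir3100, at distances of 0.10, 0.11 and 0.16. Tnc, which encodes the matrix protein tenascin C, had 31.9 and 24.4 FPKM in WT and KO of line 4 and 41.3 and 54.1 in line 6. The genes most like Id2 were Josd2, 3110001I22Rik and Commd5, at 0.016, 0.034 and 0.052. Among the members the nearest to Id1 was Id3, at rank 667 and a distance of 0.48, and the nearest to Id2 was also Id3, at rank 1180 and 0.38. Id2 stood at rank 2420 from Id1, so the Id genes were closer to many other genes than to each other.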

How the data were processed

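RNA of 2 WT and 2 KO clones was sequenced after spiking 1 µg of RNA with ERCC controls. The deposited values are FPKM that the authors scaled to spike-ins, per the file headers. Bowtie 0.12.8, TopHat2 2.0.9, affy, HTSeq, edgeR and build mm9 appear, with no roles, in the submitters' processing notes. How the spike-ins were used was not stated. Depth is unknown, since FPKM steps depend on gene length, so no counting interval is given.

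The 4 tables were joined by gene name. In each, 25 of 23376 entries had no partner and 92 were spike-ins, and both were left out. Tests ran on log2(FPKM + 1), a scale that shrinks changes of low genes, over genes averaging 1 FPKM or more, with limma 3.58.1 in R 4.3.3 (eBayes with a trend, two-sided, Benjamini-Hochberg over all 11932 tested genes, threshold 0.05). KO against WT was fitted without the founder line and line 6 against line 4 without the genotype; the other term, centring, quantile normalization, a pseudocount of 0.1, no filter, a robust spread and leaving out each library were alternatives. The line fit on the deposited scale gave an infinite prior df, so each gene received the spread of its level. Nothing says that the clones of a group were cultured in parallel, so p-values refer to the spread between these clones. In that line fit this spread was pooled over genes of like level and was not the gene's own. In the KO against WT fit (prior df 16.4) the pooled spread also outweighed the gene's own.

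Replicate numbers follow the founder line, per the clone names in the labels, so they pair WT with KO; deviations of same-numbered clones from their group means correlated at r = 0.70 across genes. The code was tested on simulated data. Named genes were the 9 members, 13 paralogs and partners, the 3 genes of lowest p per list and fit, and the 3 most like Id1 and Id2. The members and lists were chosen with earlier results of these data known. Nog, Chrd and the markers named were chosen after their values were seen. 1 gene of the wider lists that this rule named is not reported here.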

Additional observations from a re-analysis of the deposited data

Results flagged for a closer look

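In 3 members the KO clone lay on opposite sides of the WT clone in the 2 founder lines, which flagged them. Id1 differed by -0.43 on the log2(FPKM + 1) scale in line 4 and by 0.48 in line 6. Bmpr2 differed by -0.51 in line 4 and by 0.25 in line 6. Bmp4 differed by 0.11 in line 4 and by -0.0053 in line 6, the latter a near tie. Each line holds 1 pair of clones, so the difference between the lines was not tested.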

How the results depend on the processing

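Calls over all genes moved with most settings. Between KO and WT, 2 genes passed, against 0 without the filter, 0 on centred values, 0 with quantile normalization, 0 to 133 without single libraries, 95 with the replicate block and 33 when this block was joined to centring; no member passed in any of these, so the block changed no member's call. Between the lines 236 passed, against 0 without the filter, 3602 on centred values, 3865 with quantile normalization, 7 to 1607 without single libraries, 1089 with genotype as a term and 3531 with that term on centred values. Members lower in KO in line 4 numbered 8 as deposited, 1 on centred values and 3 with quantile normalization; in line 6 the count stayed within 1.5 times of 7. In KO against WT, signs turned on centred values, with or without the block, for Bmpr2 (0.18), Smad1 (0.031), Smad6 (0.10) and Id3 (0.23), and with quantile normalization for these (0.14, 0.0063, 0.066 and 0.26) and Bmpr1a (0.00069). Without single libraries Bmp4 ran from -0.20 to 0.31, Bmpr2 from -0.41 to 0.16, Smad6 from -0.47 to 0.062, Id1 from -0.53 to 0.58 and Id3 from -0.31 to 0.17. Between the lines, Smad1 turned to 0.019 on centred values, with or without the genotype term, and ran from -0.17 to 0.12 without single libraries, where Bmpr2 ran from -0.064 to 0.44. The causes were not tested. Of 99 member values between the lines, 17 passed that had not. With 1 library left out, the lone clone of a group is assumed to vary like the others. The 2 clones per group and unknown depth limit every value here.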
